A study of Mus musculus with 44 samples.

Results

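*Bcl2l2*, *Ephx4* and *Cdk10* are 3 of the 8203 genes measured on the ribosomes of *Crh* neurons of the mouse amygdala, and they were selected on their measured levels in EXT and TA mice: in each of the 16 EXT mice the level exceeded the median level of the TA group. This pattern was met by 15 of the 8203 genes (0.183%), and by 9 genes (0.110%) in the opposite direction. A further 78 genes (0.951%) had 15 of the 16 EXT mice above the TA median. The levels of the 3 genes in these groups are therefore given as a description without a test. The margin was narrow. The lowest EXT mouse lay above the TA median by 0.016 on the log2 scale for *Bcl2l2*, by 0.004 for *Ephx4* and by 0.019 for *Cdk10*. Just outside the pattern were *Fam120a*, with 14 EXT mice above the TA median and the lowest EXT mouse 0.030 under it, and *Zdhhc4*, with 15 EXT mice above it and the lowest 0.093 under it.

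The samples were 44 CRH-TRAP mice, of which 16 were TA mice (10 males, 6 females), 12 were FC mice (6 males, 6 females) and 16 were EXT mice (10 males, 6 females). All of them, controls included, were first-generation offspring of a Crh-Cre transgenic line and a line with a Cre-dependent eGFP-L10a ribosomal protein, carried 1 copy of each transgene and were 10 to 16 weeks old. The tag is restricted to cells in which the *Crh* promoter drives Cre, so cells that express Cre without endogenous *Crh* would be included. TA mice heard 5 tones without shock, FC mice heard 5 tones that each ended with a 0.65 mA footshock, and EXT mice were conditioned like FC mice and on the following day heard 30 tones without shock. Mice were killed 2 h after their last session, and an antibody against GFP pulled down the ribosome-bound RNA from amygdala punches of single mice. Values are log2 cpm (reads relative to library size) with an offset of 0.5 reads. They were solved back to whole reads, which gave effective libraries of 12802113 to 20440351 reads. In bulk samples of this kind, fewer tagged cells and less of an RNA in each cell cannot be told apart.

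*Bcl2l2* encodes BCL-W, a member of the BCL-2 family. Its prosurvival proteins bind the pore formers BAX and BAK and so hold back the release of cytochrome c from mitochondria, while BH3-only proteins such as HRK counteract them. *Ephx4* encodes a little studied member of the epoxide hydrolase group, whose better known enzymes add water to epoxides of fatty acids and foreign compounds and share the alpha/beta hydrolase fold with the ABHD proteins. *Cdk10* encodes a cyclin-dependent kinase that is activated by cyclin M and phosphorylates the transcription factor ETS2 and the kinase PKN2. Neurons no longer divide, and several kinases of this family are known there for roles outside the cell cycle.

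In the GENCODE annotation of GRCm38, the build the authors mapped to, *Bcl2l2* (ENSMUSG00000089682.10) lies at chr14:54883377-54888234, *Ephx4* (ENSMUSG00000033805.12) at chr5:107402736-107430035 and *Cdk10* (ENSMUSG00000033862.7) at chr8:123224842-123232250, all on the plus strand. Parts of their exons are shared with other annotated genes. *Gm20521*, a readthrough gene that runs from *Bcl2l2* into *Pabpn1* on the same strand, covers 13.3% of the exon bases of *Bcl2l2*. Antisense *Gm17202* covers 4.43% of those of *Ephx4*. *Spata2l* on the opposite strand covers 9.69% of the exon bases of *Cdk10*, and *Gm45842* on the same strand 4.32%. The strand setting of the counting is not given in the sources used here, so reads in these stretches cannot be assigned with certainty.

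Because the 3 genes share the EXT pattern they were selected on, the sequences around their annotated starts are shown side by side, from 250 bases before the start to 50 bases after it. They come from RefSeq on GRCm38.p6, on the plus strand and 5′ to 3′, at chr14:54883175-54883474 for *Bcl2l2*, chr5:107403263-107403562 for the first of the 2 starts listed for *Ephx4*, and chr8:123224591-123224890 for *Cdk10*. Capitals mark matches to any of 7 motifs searched on both strands.
Bcl2l2: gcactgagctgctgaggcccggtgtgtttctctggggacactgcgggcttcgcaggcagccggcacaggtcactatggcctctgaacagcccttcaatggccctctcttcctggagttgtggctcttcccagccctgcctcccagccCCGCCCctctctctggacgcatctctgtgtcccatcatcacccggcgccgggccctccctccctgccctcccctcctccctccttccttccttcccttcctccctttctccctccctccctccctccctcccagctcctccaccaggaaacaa
Ephx4: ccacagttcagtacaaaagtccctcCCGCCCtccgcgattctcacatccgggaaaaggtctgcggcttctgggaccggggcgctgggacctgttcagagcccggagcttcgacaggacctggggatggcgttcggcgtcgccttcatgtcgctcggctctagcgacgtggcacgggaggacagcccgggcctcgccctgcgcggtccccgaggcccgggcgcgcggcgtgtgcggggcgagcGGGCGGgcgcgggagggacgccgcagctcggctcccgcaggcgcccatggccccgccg
Cdk10: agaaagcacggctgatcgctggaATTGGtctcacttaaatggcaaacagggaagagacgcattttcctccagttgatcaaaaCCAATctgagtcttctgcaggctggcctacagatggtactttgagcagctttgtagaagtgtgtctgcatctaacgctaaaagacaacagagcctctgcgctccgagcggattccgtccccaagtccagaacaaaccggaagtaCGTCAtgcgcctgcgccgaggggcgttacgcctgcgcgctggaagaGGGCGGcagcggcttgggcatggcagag
The motifs were the cAMP response element TGACGTCA, its core TGACG, the AP-1 motif TGANTCA, the CCAAT box CCAAT, the GC box GGGCGG, the E-box CACGTG and the NRF1 palindrome. Of these the core overlaps the whole element. The only motif that all 3 windows held was the GC box, at -103 for *Bcl2l2*, at -225 and -8 for *Ephx4* and at 23 for *Cdk10*, counted from the start. It was present in 35.7% of all 32851 promoter windows in the table, and in 64.2% of the 8472 windows of genes in the matrix. *Cdk10* also held the core at -24, found in 20.8% of all windows and 33% of those of genes in the matrix, and CCAAT boxes at -227 and -168, found in 37.4% of both. The whole response element (1.79% of windows), the AP-1 motif (7.81%), the E-box (7.15%) and the NRF1 motif (0.971%) were in none of these 3 windows. The second *Ephx4* start, at chr5:107405511-107405810, held the core at -4. Base composition differed between the windows, with 65.3% G or C for *Bcl2l2*, 73.3% for the first start of *Ephx4* and 55% for *Cdk10*. These matches describe the letters in the windows alone.

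Some libraries stood apart from the rest. On the first 2 principal components of all genes (29.0% and 23.1% of the variance), 6 libraries lay together in a single corner, and all 6 were EXT mice (mice 21, 22, 25, 44, 53 and 55, of which 1 was of batch 2, 4 of batch 3 and 1 of batch 4). Their summed level of the 7 measured genes of a list of mitochondrial transcripts and *Malat1* was 14.16 to 14.97 log2 cpm, against at most 11.60 in TA mice, 12.68 in FC mice and 12.27 in the other 10 EXT mice. The sum of 13 *Crh* neuron and central amygdala GABAergic markers was 10.95 to 11.75 in these 6, and at least 11.82 in every other mouse. *Crh* itself was 3.15 to 4.56 in them and 3.97 to 7.18 elsewhere. Mice 22, 25, 44 and 53 also carry a sex or group label that differs from the label shared by the mice next to them in number, and all 4 are among the 6. Batches 3 and 4 held 5 and 1 mice, all EXT, so their batch effect and the effect of EXT cannot be told apart. Results that rest on EXT mice are therefore given with and without these 6 mice, a choice made after the data were seen.

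*Bcl2l2*, the survival gene, had the widest spread of the 3. TA mice ranged from 3.55 to 4.64 log2 cpm with a median of 4.02, FC mice from 4.02 to 5.35 with a median of 4.35, and EXT mice from 4.03 to 5.80 with a median of 4.73. The lowest and highest reads behind these values were 190 and 911. The groups overlapped, although each of the 12 FC mice exceeded the TA median, as each EXT mouse did by the choice of the gene. The lowest FC mouse was within 0.01 of that median. A level above the TA median in each of the 12 FC mice was seen in 15 of 8203 genes (0.183%). The same TA median was used to choose *Bcl2l2*, so this share does not measure how unusual its FC levels are. Among EXT mice, 9 lay above the highest TA mouse. The 6 that stand apart were all among these, at 5.56 to 5.80, and 3 of the other 10 were, with a range of 4.03 to 5.48 in those 10. In EXT mice of batch 3, mouse 23 had 4.26 while the other 4 had 5.56 or more.

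For *Ephx4*, the hydrolase gene, the rank among the 3 depended on the fit. Its EXT vs. TA difference was below that of *Cdk10* with batch as a number (0.46 against 0.61). It was above that of *Cdk10* with batch as categories (0.40 against 0.36) and without the 6 mice (0.32 against 0.26). TA mice ranged from 5.41 to 6.21 log2 cpm with a median of 5.80, FC mice from 5.18 to 6.35 with a median of 6.09, and EXT mice from 5.80 to 6.70 with a median of 6.25. FC mice fell on both sides of the TA median, 7 of 12 above it, and the lowest mouse of the whole series was an FC mouse. Of the EXT mice, 9 exceeded the highest TA mouse, 6 of 6 that stand apart (6.24 to 6.70) and 3 of the other 10 (5.80 to 6.61). Here the 6 did not form a separate cluster, since the other EXT mice reached nearly as high.

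*Cdk10*, the kinase gene, had the widest gap of the 3 among EXT mice. TA mice ranged from 5.35 to 5.91 log2 cpm with a median of 5.67, FC mice from 5.51 to 5.96 with a median of 5.81, and EXT mice from 5.69 to 7.05 with a median of 6.03. The 6 mice that stand apart had 6.64 to 7.05, and the other 10 EXT mice 5.69 to 6.20, without overlap between them. *Bcl2l2* had no overlap either, but a narrow gap (from 5.48 to 5.56). The 6 were picked on components of all genes, and how many genes separate them in this way was not counted. Again 9 EXT mice exceeded the highest TA mouse, 3 of them outside the 6, and 8 of 12 FC mice were above the TA median.

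**Figure D1:**
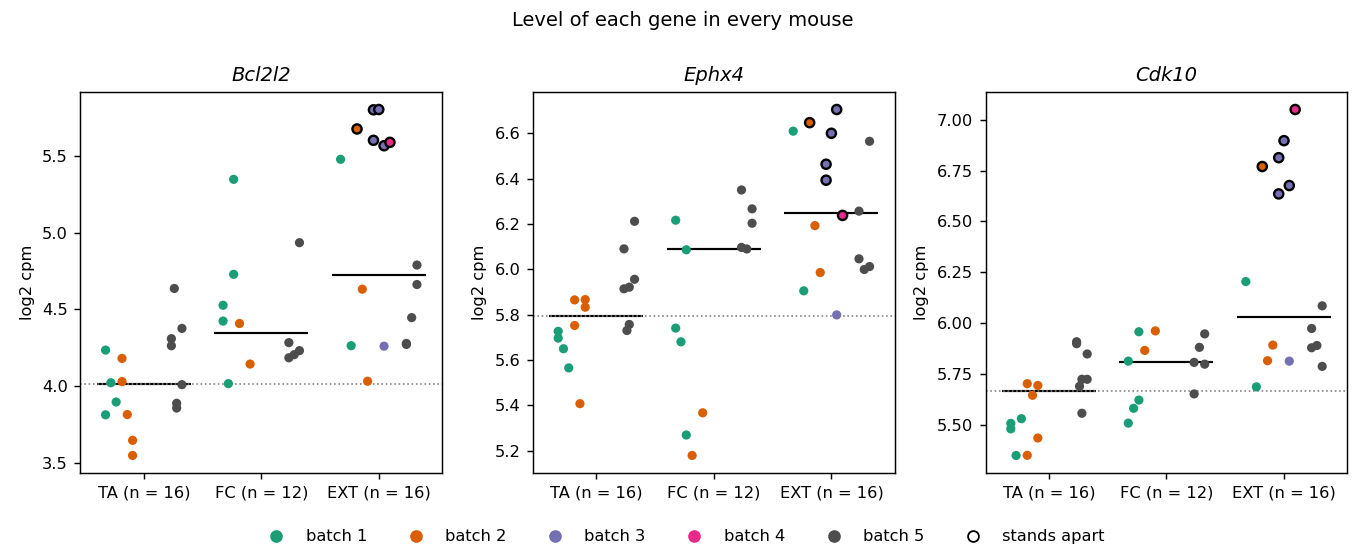
Log2 cpm of Bcl2l2, Ephx4 and Cdk10 in each of the 44 mice by group, coloured by batch, with the group median as a bar, the TA median as a dotted line and a black ring around the 6 EXT mice that stand apart. No EXT point lies below the dotted line, and the ringed points hold the top of the EXT group for Bcl2l2 (5.56 to 5.80) and Cdk10 (6.64 to 7.05) but mix with the others for Ephx4.

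In the fit with batch as a number and sex as a factor, EXT vs. TA differed by 0.91 on the log2 scale (SE 0.18, a fold of 1.88) for *Bcl2l2*, by 0.46 (SE 0.09, a fold of 1.38) for *Ephx4* and by 0.61 (SE 0.13, a fold of 1.53) for *Cdk10*, with n = 16 in each group. Across all genes, 1755 of 8203 (21.4%) were FDR-significant in this contrast, and no call is read for the 3 genes because it chose them. The differences kept their sign under every setting tried, which the choice of the genes made likely. They were smaller where batch entered as categories, at 0.62 for *Bcl2l2*, 0.40 for *Ephx4* and 0.36 for *Cdk10*. That coding left 2 FDR-significant genes of 8203 (0.0244%). Without the 6 mice that stand apart, the differences were 0.46 (SE 0.14), 0.32 (SE 0.09) and 0.26 (SE 0.07) for the same genes in order, and 0 genes were FDR-significant in limma (592 genes, 7.22%, reached an unadjusted p under 0.05). The *Bcl2l2* and *Cdk10* differences thus shrank the most when those 6 libraries were left out and that of *Ephx4* the least, and the part of their mitochondrial and *Malat1* content in this was not tested.

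**Figure D2:**
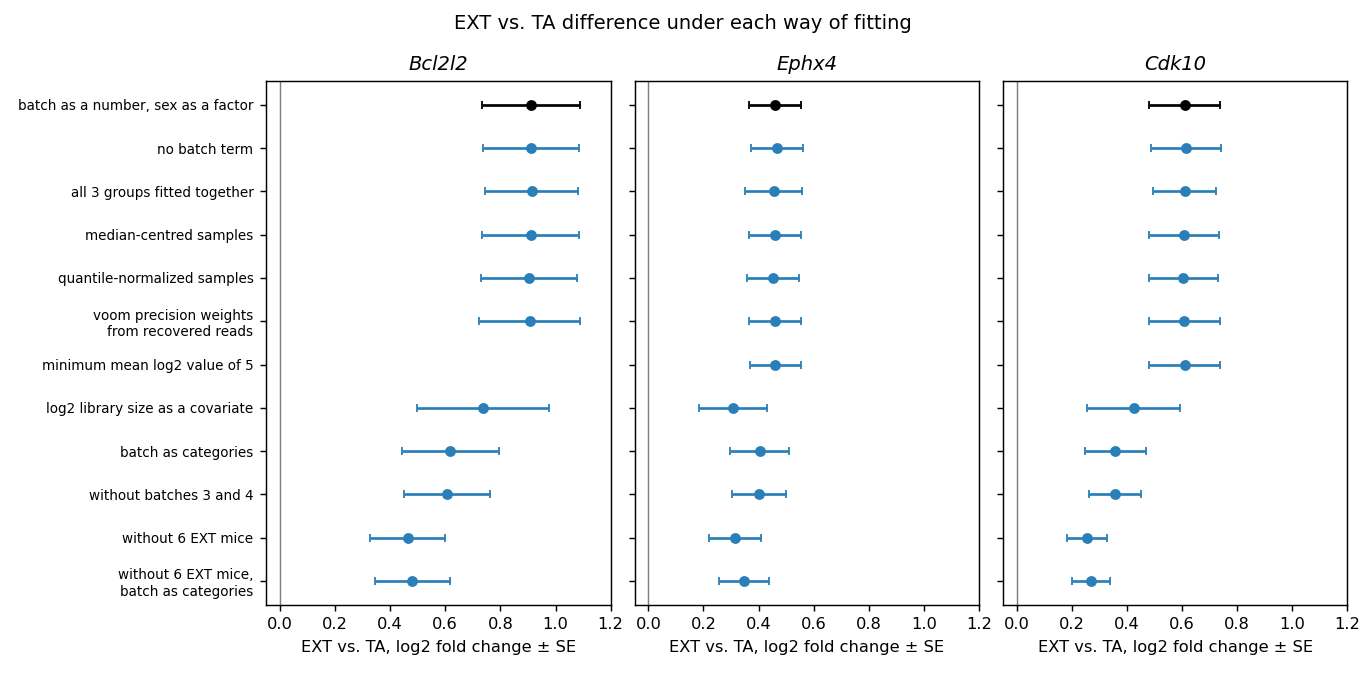
EXT vs. TA log2 fold change with its standard error for Bcl2l2, Ephx4 and Cdk10 under each way of fitting, the black point being batch as a number with sex as a factor and the 6 EXT mice being those that stand apart. All values are above 0, which the choice of the genes made likely. They run from 0.46 to 0.91 for Bcl2l2, which has no value under the minimum mean because its own mean was lower.

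Within the 3 batches that held all groups, EXT mice averaged above TA mice for each gene, in a total of 9 differences that were not tested because the choice of the genes used these mice. In batch 1 (2 EXT, 4 TA) the means differed by 0.88 for *Bcl2l2*, 0.60 for *Ephx4* and 0.48 for *Cdk10*. Batch 2 (3 EXT, 5 TA) gave 0.93, 0.53 and 0.59, and without mouse 21, the mouse of this batch that stands apart, 0.49, 0.34 and 0.29. Batch 5 (5 EXT, 7 TA), with no such mouse, gave the smallest values, 0.30 (SE 0.15), 0.24 (SE 0.13) and 0.16 (SE 0.07). Whether EXT vs. TA varied between these batches was tested with an interaction in limma, for which 111 of 8203 genes (1.35%) were FDR-significant. None of the 3 genes was, with FDR of 0.433 for *Bcl2l2*, 0.517 for *Ephx4* and 0.378 for *Cdk10*.

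**Figure D3:**
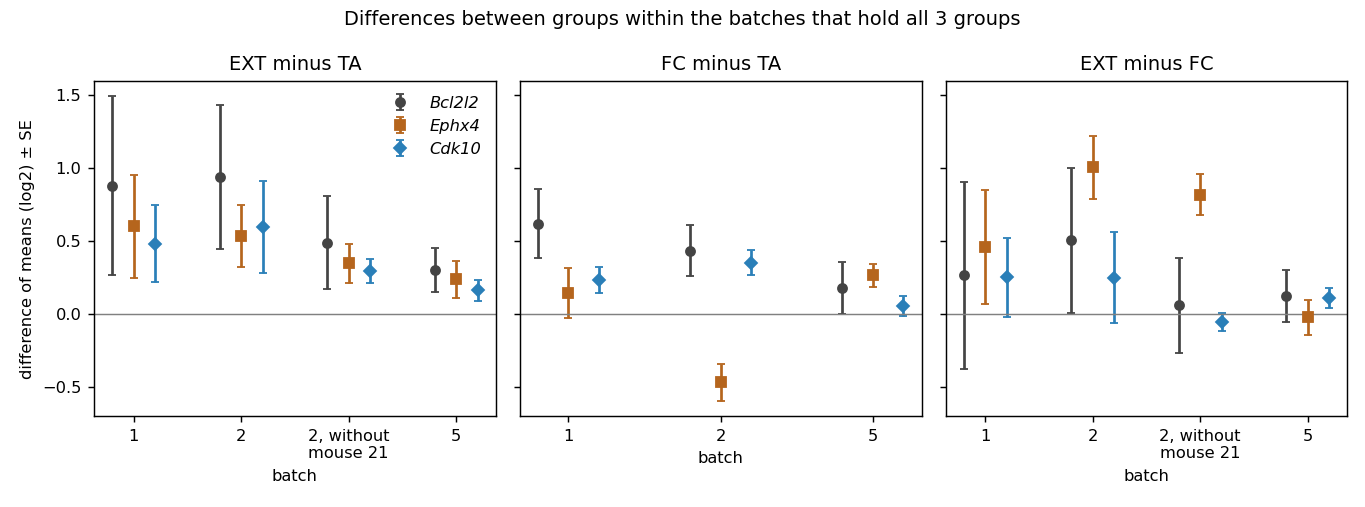
Differences between group means (log2, bars are standard errors) within batches 1, 2 and 5 for Bcl2l2, Ephx4 and Cdk10, with batch 2 also shown without mouse 21 where EXT mice enter. EXT minus TA is above 0 in each batch, which the choice of the genes made likely. FC minus TA of Ephx4 is -0.47 in batch 2 and 0.26 in batch 5.

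FC vs. TA compares mice with tones and shocks with mice that heard the tones only. No group had shocks without paired tones, so learning and exposure to shock cannot be told apart. The FC mice had no part in the choice of the genes, while the TA mice did. With limma, none of the 3 genes was FDR-significant, and neither was any of the 8203 genes (0%), although 853 (10.4%) had an unadjusted p under 0.05, or 849 with voom weights. *Bcl2l2* was higher in FC mice by 0.41 (SE 0.12, unadjusted p = 0.00283, FDR = 0.309 in limma), the largest of the 3 differences. Its mean was higher in each of batches 1, 2 and 5, by 0.62, 0.43 and 0.18, and in both sexes, by 0.28 in males and 0.56 in females. Leaving out each FC or TA mouse in turn gave 0.33 to 0.45, the lowest without FC mouse 17, which had the highest FC level of 5.35. *Cdk10* differed by 0.17 (SE 0.07, unadjusted p = 0.0182, FDR = 0.406 in limma), with 0.23, 0.35 and 0.05 in the 3 batches. *Ephx4* differed by 0.09 (SE 0.10, 95% interval -0.12 to 0.29, FDR = 0.826 in limma). Markers of other cells moved in the same comparison without any being FDR-significant. All 9 astrocyte markers were above 0 (median 0.43, 3 with an unadjusted p under 0.05), as were all 8 oligodendrocyte markers (median 0.29), and all 4 choroid plexus markers were below 0 (median -0.88). Their part in the FC values of the 3 genes was not tested.

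The small overall FC difference of *Ephx4* combined opposite values. In batch 2 the 2 FC mice had 5.18 and 5.37, under all 5 TA mice (5.41 to 5.87). In batch 5 the 5 FC mice had 6.09 to 6.35 against 5.73 to 6.21 in 7 TA mice. An interaction of batch with FC vs. TA, added after these values were seen, gave an unadjusted p of 0.00738 for *Ephx4* and an FDR of 0.566 in limma, where 585 of 8203 genes (7.13%) had an unadjusted p under 0.05 and 0 were FDR-significant. The difference between batches was therefore not FDR-significant.

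EXT vs. FC compares mice with conditioning and 30 extinction tones with mice with conditioning only. FC mice were killed on the day of the shocks and EXT mice on the following day. Per the study's methods, EXT mice were returned to the animal facility and heard these tones in another context. No conditioned group was killed on the following day without these tones. The contrast therefore cannot separate extinction from time since shock, the added session or the context. EXT vs. TA has the same limit. EXT mice helped to choose the genes and TA and FC comparisons share mice, so EXT vs. FC is not independent of the values above. The differences were 0.52 (SE 0.21) for *Bcl2l2*, 0.38 (SE 0.14) for *Ephx4* and 0.45 (SE 0.15) for *Cdk10*. None was FDR-significant in limma (FDR = 0.219 for each of the 3), nor was any other gene (0%), while 1587 genes (19.3%) had an unadjusted p under 0.05, or 1573 with voom weights. Fitting all 3 groups together gave FDR of 0.0928, 0.0685 and 0.0652, with 17 other genes FDR-significant. Without the 6 mice that stand apart the differences were 0.09 (95% interval -0.25 to 0.43), 0.22 (-0.09 to 0.52) and 0.11 (-0.08 to 0.29). At this spread the other 10 EXT mice could not be told from FC mice for any of the 3 genes. With batch as categories the differences were 0.25, 0.35 and 0.18 for the same genes in order, and with library size as a covariate 0.33, 0.20 and 0.32. For *Ephx4*, EXT minus FC was 0.46 in batch 1, 1.00 in batch 2, which holds the 2 low FC mice, and -0.03 in batch 5 (batch by EXT vs. FC, added after seeing the data, unadjusted p = 0.0193, FDR = 0.594 in limma).

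No difference between males and females was detected. The fitted male minus female difference, with group and batch as factors, was -0.03 (SE 0.15) for *Bcl2l2*, -0.01 (SE 0.10) for *Ephx4* and -0.03 (SE 0.09) for *Cdk10*, none FDR-significant in limma, where 0 of 8203 genes were (0%) and 339 (4.13%) had an unadjusted p under 0.05. EXT exceeded TA in both sexes, which the choice of the genes made likely. The differences were 0.93 in males and 0.89 in females for *Bcl2l2*, 0.43 and 0.52 for *Ephx4*, and 0.64 and 0.57 for *Cdk10*. The sex by EXT vs. TA interaction was 0.04 (SE 0.37), -0.10 (SE 0.20) and 0.07 (SE 0.27), FDR = 0.998 for each in limma. No gene passed (0%), and 339 genes (4.13%) had an unadjusted p under 0.05. The signs of the interaction terms of *Bcl2l2* and *Cdk10* turned with batch as categories, at -0.048 and -0.0018, and without the 6 mice, at -0.12 and -0.072. In the interaction, differences between the sexes as large as these standard errors (0.20 to 0.37), or somewhat larger, were not detectable.

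Batch moved the levels of many genes, 4538 of 8203 (55.3%) in an F test over batches 1, 2 and 5 with group and sex held fixed. The 3 genes were not among them, with FDR of 0.903 for *Bcl2l2*, 0.057 for *Ephx4* and 0.0792 for *Cdk10* in limma. *Ephx4* and *Cdk10* were higher in batch 5 than in batch 1, by 0.25 (SE 0.12) and 0.22 (SE 0.09), whereas *Bcl2l2* differed by -0.01 (SE 0.17). *Ephx4* passed with median-centred samples (FDR = 0.0447 in limma) and without the 6 mice (FDR = 0.0182).

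To see whether the 3 genes varied together apart from group and batch, each value was centred on the mean of its batch and group, in the 39 mice of cells with at least 3 mice. *Bcl2l2* and *Cdk10* then had r = 0.73 (Spearman's rho 0.54, permutation p = 0.00391 and 0.00456, adjusted over 3 pairs 0.0117 and 0.0137), and r = 0.51 without the 2 mice farthest from the median. *Bcl2l2* and *Ephx4* had r = 0.36 (rho 0.28, permutation p = 0.112 and 0.14), which fell to 0.07 without the 2 farthest mice. *Ephx4* and *Cdk10* had r = 0.40 (rho 0.23, permutation p = 0.083 and 0.242), and 0.35 without the 2 farthest. These 39 mice hold both kinds of EXT library. Mouse 23 was the lowest for each of the 3 genes after centring and mouse 21 the highest for *Bcl2l2* and *Cdk10*, and each shares its batch and group with mice of the other kind. Of the 6 mice that stand apart, 5 are among these 39. Leaving them out also removed mice 23, 51 and 52, whose cells then held fewer than 3 mice, so that 31 mice remained, and r was 0.34 for *Bcl2l2* and *Cdk10* (rho 0.30, permutation p = 0.139 and 0.152). For *Bcl2l2* and *Ephx4* it was -0.13 (rho 0.03, permutation p = 0.653 and 0.873), and for *Ephx4* and *Cdk10* -0.21 (rho -0.11, permutation p = 0.393 and 0.618). None passed after adjustment over 3 pairs (adjusted p of r 0.416, 0.653 and 0.589). In settings added later, *Bcl2l2* and *Cdk10* had r = 0.59 without mouse 23 (38 mice, adjusted permutation p = 0.076), 0.66 without mouse 21 (36 mice, adjusted permutation p = 0.0295) and 0.36 without both (35 mice, adjusted permutation p = 0.278). Leaving out mouse 21 also removed mice 51 and 52 from their cell. Without both mice, r was -0.14 for *Bcl2l2* and *Ephx4* and -0.20 for *Ephx4* and *Cdk10*. The call for *Bcl2l2* and *Cdk10* thus rested on few EXT mice, mouse 23 among them.

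**Figure D4:**
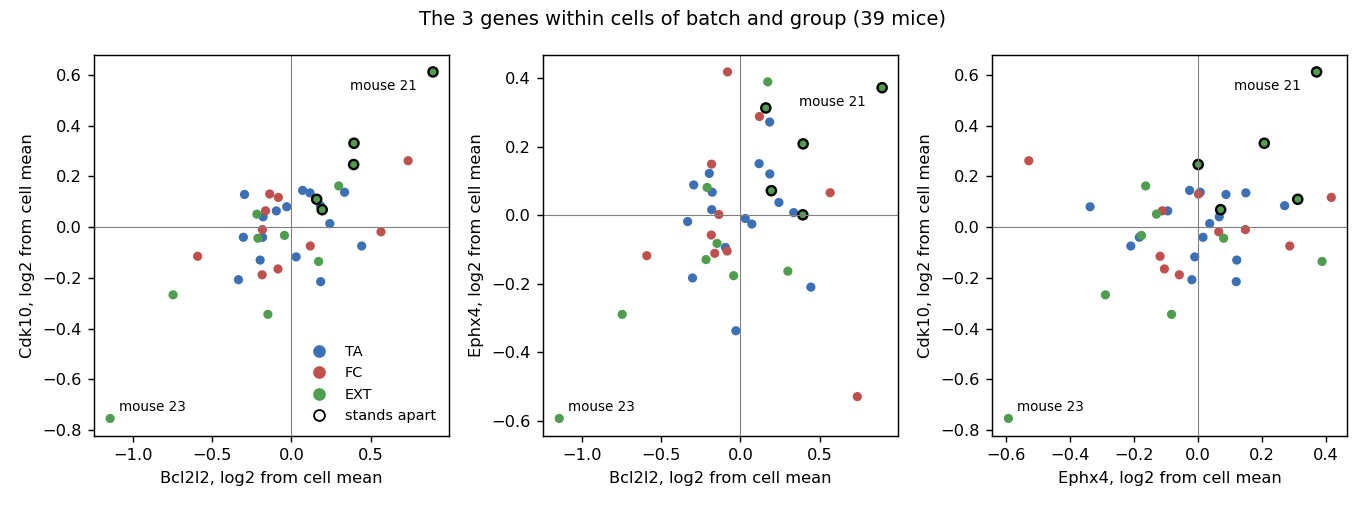
Each pair of genes after subtraction of the mean of batch and group (log2), with the 39 mice coloured by group and a ring around the 5 of them that stand apart. Mouse 21 at the upper right and mouse 23 at the lower left carry much of the relation, r = 0.73 for Bcl2l2 and Cdk10, which was 0.36 without these mice (35 mice, mice 51 and 52 also leaving).

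The pairs were also compared within groups. Among 10 FC mice r was 0.51 for *Bcl2l2* and *Cdk10* (rho 0.47), -0.30 for *Bcl2l2* and *Ephx4* (rho 0.18) and -0.24 for *Ephx4* and *Cdk10* (rho 0.01), with an adjusted permutation p of 0.641 for each r. Among 16 TA mice r was 0.17 for *Bcl2l2* and *Cdk10* (rho 0.23), 0.04 for *Bcl2l2* and *Ephx4* (rho 0.08) and 0.03 for *Ephx4* and *Cdk10* (rho 0.04), with an adjusted permutation p of 0.934 for each r and 0.912 for each rho. Among 13 EXT mice r was 0.92, 0.80 and 0.70 (rho 0.87, 0.62 and 0.48), with an adjusted permutation p of 0.0291, 0.0291 and 0.0636 for r and 0.0272, 0.0678 and 0.131 for rho, in mice of both kinds of library. With log2 library size, the 3 genes had r of -0.12 for *Bcl2l2* (rho 0.01), -0.34 for *Ephx4* (rho -0.33) and -0.26 for *Cdk10* (rho -0.14; permutation p of r = 0.536, 0.0403 and 0.174, adjusted over 3 relations 0.536, 0.121 and 0.261, and permutation p of rho 0.943, 0.0445 and 0.384, adjusted 0.943, 0.134 and 0.576). Without the 2 mice farthest in library size r was -0.13, -0.33 and -0.28.

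The closest genes of *Bcl2l2* and *Cdk10* were partly shared in 39 mice. *Mafg*, closest to *Bcl2l2*, had r = 0.80 with *Cdk10*, and *Abhd17a*, closest to *Cdk10*, had 0.77 with *Bcl2l2*. *Uqcrc2* was among the 4 lowest of both. In 31 mice the first 2 values were 0.38 and 0.37. The 8 genes closest to *Ephx4* had r of 0.35 to 0.52 with *Bcl2l2* and 0.31 to 0.63 with *Cdk10* in 39 mice. The r of single genes below are descriptions over mice that share library and batch effects. Of 8202 other genes, 703 (8.57%) had r of at least 0.5 with *Bcl2l2* in 39 mice, 435 (5.30%) with *Ephx4* and 801 (9.77%) with *Cdk10*. In the 31 mice left without those that stand apart (and without mice 23, 51 and 52) these were 195 (2.38%), 164 (2.00%) and 280 (3.41%).

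Among the genes most like *Bcl2l2* in 39 mice were *Mafg*, which encodes a small MAF transcription factor (r = 0.84), *Fam63b* (0.83), the postsynaptic scaffold gene *Shank1* (0.83), the actin-capping tropomodulin gene *Tmod2* (0.80), *Msl1* of a histone acetyltransferase complex (0.79), *Borcs7* of a lysosome positioning complex (0.79) and *Iqsec3* of inhibitory synapses (0.78). In 31 mice their r with *Bcl2l2* was 0.47 to 0.75, with *Mafg* (0.75) and *Iqsec3* (0.72) highest. Their r with *Ephx4* in the same 31 mice was -0.28 to 0.20, and with *Cdk10* 0.11 to 0.49. The 4 most opposed genes were *Uqcrc2* of respiratory complex III, *Wdr36* and *Utp18* of ribosomal RNA processing and the coatomer gene *Arcn1* (r = -0.84 to -0.82), and -0.76 to -0.63 in 31 mice.

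Closest to *Ephx4* were *Ramp1*, the receptor partner through which cells respond to CGRP (r = 0.79), *Cyhr1* (0.77), the adrenergic receptor gene *Adra2c* (0.76), *Car11* of the carbonic anhydrase family (0.75), *Ppp1r1a*, an inhibitor of protein phosphatase 1 (0.75), the centrosomal gene *Cep83* (0.74), *Hras* (0.73) and *Lrrc10b* (0.73). In 31 mice their r was 0.52 to 0.74, highest for *Ramp1* (0.74) and *Adra2c* (0.68). With *Bcl2l2* it was then -0.18 to 0.09 and with *Cdk10* -0.23 to 0.16. The lowest r belonged to the tubulin gene *Tubb5*, the autophagy receptor gene *Sqstm1*, the RNA helicase gene *Ddx39b* and *Prkar1a*, a regulatory subunit of protein kinase A (-0.78 to -0.75, and -0.70 to -0.58 in 31 mice).

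For *Cdk10* the closest genes were *Abhd17a*, a depalmitoylating enzyme (r = 0.89), *Fam213b* (0.85), the cyclin gene *Ccny* (0.85), the ribosomal protein gene *Rpl13a* (0.84), the ubiquitin-conjugating enzyme gene *Ube2r2* (0.84), guanylate kinase *Guk1* (0.83), the protein kinase A inhibitor gene *Pkig* (0.83) and *Azi2* (0.83). Only *Ccny* (0.71), *Abhd17a* (0.69) and *Azi2* (0.56) of these 8 were at 0.5 or more in 31 mice, and *Guk1* was at 0.28. Among the most opposed were *Gnl3l*, *Uqcrc2* and *Ghitm* (-0.82 to -0.78), which were between -0.46 and -0.40 in 31 mice.

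**Figure D5:**
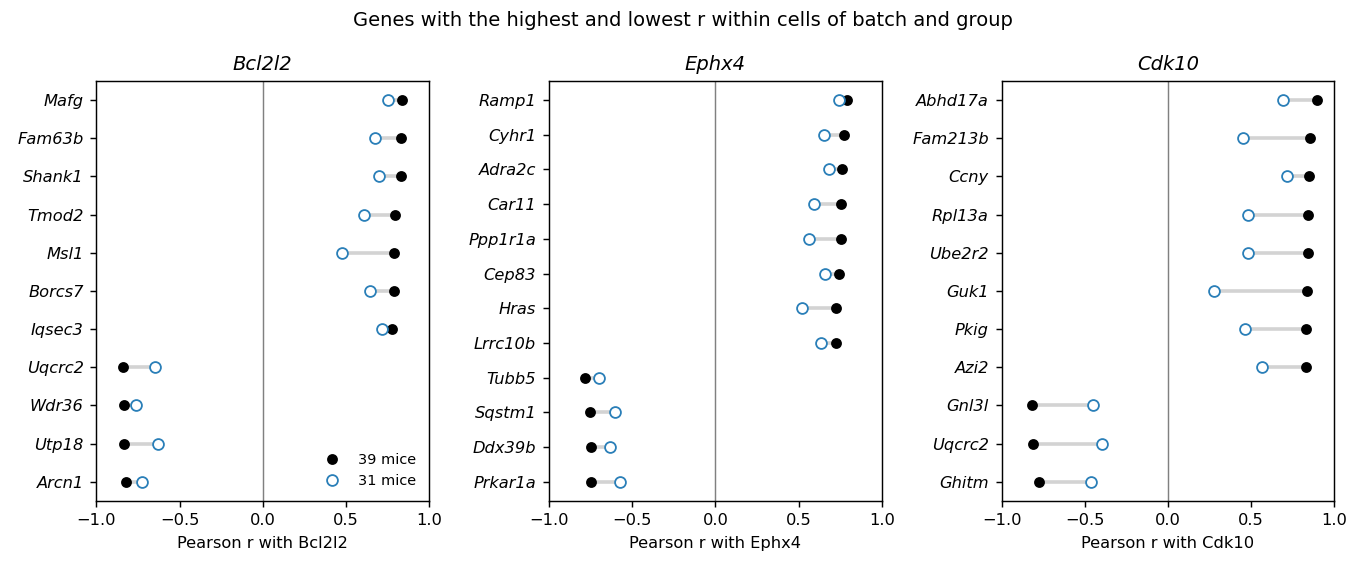
Pearson r of each named gene with Bcl2l2, Ephx4 or Cdk10 on values centred within batch and group, in 39 mice (black) and in the 31 mice without those that stand apart and mice 23, 51 and 52 (open). For Ephx4 all 12 genes stay past 0.5 or -0.5 in 31 mice, for Bcl2l2 all those drawn but Msl1 (0.47), and for Cdk10, of those drawn, only Abhd17a, Ccny and Azi2.

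Genes close to all 3 at once were *Abhd17a*, *Guk1*, *Purb*, *Mpp6*, *Ogfrl1*, *Vti1b*, *Aes*, *Usf2*, *Ddn* and a further row whose symbol had been turned into a date in the deposited file. Their mean r over the 3 genes was 0.69 to 0.73 in 39 mice and 0.14 to 0.43 in 31 mice, *Ddn*, which encodes dendrin of the postsynaptic density, having the highest of the latter.

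The other 12 genes that met the same pattern included *Pabpc1*, *Bcl7c*, *Hrk*, *Rpl13a*, *Socs7*, *2810013P06Rik*, *Pdcl3*, *Haus1*, *Pias2*, *Stum* and *Timm21*. Their EXT vs. TA differences, a description like those above, ranged from 0.32 for *Timm21*, of the mitochondrial import machinery, to 1.03 for *Pabpc1*, the poly(A) binding protein of the cytoplasm. In 39 mice, 9 of the 12 had r of at least 0.5 with *Bcl2l2* (background 8.57%), 9 with *Cdk10* (9.77%) and 0 with *Ephx4* (5.30%). In 31 mice this held for 2 of the 12 with *Bcl2l2* (2.38%), *Socs7* (0.54) being one of them, and for none with *Ephx4* (2.00%) or *Cdk10* (3.41%). The other risers of the study's list of top EXT genes, which was drawn from these same mice, were *Ppp1r1a* (0.69, SE 0.14), *Mettl9* (0.57, SE 0.12), *Zdhhc4* (0.65, SE 0.14), *R3hdm4* (0.49, SE 0.10), *Camk2n1* (1.15, SE 0.24) and *Fam120a* (0.51, SE 0.11). All 6 were FDR-significant in EXT vs. TA (FDR = 0.013 in limma, 10.4% of all genes being higher) and 0 of 6 with batch as categories or without the 6 mice. With both changes together 3 of the 6 passed, *Camk2n1* (0.52), *Mettl9* (0.29) and *Zdhhc4* (0.30), each with FDR = 0.0465 in limma. In that setting, added after the data were seen, 128 of 8203 genes passed, 46 of them higher. The list of these 6 risers was drawn from the same contrast and is not independent evidence of its direction.

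Relatives of *Bcl2l2* in the BCL-2 family were tested as genes that had no part in the choice, except *Hrk*. Of 25 family members, 13 had rows. Of the 12 besides *Bcl2l2*, *Hrk* included, 2 rose in EXT vs. TA and 0 fell (10.4% and 11% of all genes). Their median difference was 0.09 against 0.005 over all genes. The 2 were *Bax*, the pore former, and *Hrk*, a BH3-only antagonist expressed in neurons. *Bax* was at 5.81 in TA and 6.20 in EXT mice (difference 0.39, SE 0.09, FDR = 0.013 in limma). *Hrk* was at 4.59 and 5.39 (difference 0.80, SE 0.19). Because *Hrk* itself met the selection pattern, its rise is a description, and *Bax* was the only other riser of the list. The proteins BAX and HRK are both known to promote cell death, the opposite of BCL-W. Neither was FDR-significant with batch as categories, at 0.31 and 0.49, or without the 6 mice, at 0.23 and 0.39, and with both changes together *Bax* had FDR = 0.051 in limma. The prosurvival members were at 0.23 (SE 0.12) for *Bcl2*, 0.02 (SE 0.06) for *Bcl2l1* and 0.01 (SE 0.09) for *Mcl1*, and the BH3-only gene *Bid* at -0.25 (SE 0.12), none of them FDR-significant. In the downstream list of apoptosome genes and caspases, 7 of 14 had rows and 1 rose. It was *Xiap*, an inhibitor of caspases, at 4.53 in TA and 5.50 in EXT mice (difference 0.98, SE 0.21, FDR = 0.013 in limma), 0.49 with batch as categories and 0.35 without the 6 mice, neither FDR-significant. *Xiap* was also higher in FC than in TA mice by 0.41, which was not FDR-significant (unadjusted p = 0.000336, FDR = 0.303 in limma). The next smallest p belonged to *Birc2*, with a difference of -0.18 (SE 0.10), and *Birc6*, with 0.35 (SE 0.20) in that fit and about 0 in others.

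Of 24 epoxide hydrolases and ABHD hydrolases, 17 had rows, and 3 of the 16 besides *Ephx4* rose in EXT vs. TA while 0 fell (10.4% and 11% of all genes). These were *Abhd3* (4.90 in TA, 5.58 in EXT mice, difference 0.69, SE 0.19, FDR = 0.0168 in limma), which cleaves phospholipids, and the depalmitoylating enzymes *Abhd17a* (8.50 and 8.99, difference 0.50, SE 0.13, FDR = 0.0139) and *Abhd17c* (6.25 and 6.72, difference 0.48, SE 0.15, FDR = 0.0222). The other epoxide hydrolase with a row, *Ephx2*, which acts on epoxides of fatty acids, was at -0.19 (SE 0.14). The median of the 16 was 0.11, and 0 were FDR-significant with batch as categories or without the 6 mice.

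Among 25 cyclin-dependent kinases, 17 had rows, and of the 16 besides *Cdk10*, 4 rose and 1 fell (10.4% and 11% of all genes), with a median of 0.01. *Cdk16* (difference 0.56, SE 0.17), *Cdk19* (0.47, SE 0.17), a kinase of the mediator complex, *Cdkl2* (0.32, SE 0.11) and *Cdkl3* (0.61, SE 0.18) rose. *Cdk17* fell by 0.57 (SE 0.15, FDR = 0.0149 in limma), from 8.16 in TA to 7.60 in EXT mice. *Cdk5*, the best known kinase of the family in neurons, was at 0.01 (SE 0.07). Among cyclins and partners of these kinases, 26 of 36 had rows, with a median of 0.11. Of these, 5 rose, a larger share than the 10.4% of all genes, and 3 fell, near the 11%. Of 3 known partners of *Cdk10* itself, 1 passed the test. *Fam58b*, a gene related to cyclin M, was at 0.16 (SE 0.08, FDR = 0.134 in limma), the substrate *Pkn2* at 0.30 (SE 0.15, FDR = 0.13) and the substrate *Ets2* fell by 0.55 (SE 0.15, FDR = 0.0168), from 6.41 in TA to 6.03 in FC and 5.86 in EXT mice. The other named members that rose were *Cdk2ap1* (0.71, SE 0.19), *Ccnd2* (0.58, SE 0.19), *Ccni* (0.70, SE 0.19) and *Ccny* (0.45, SE 0.13), and *Cdkn1a*, which encodes the p21 inhibitor, fell by 0.39 (SE 0.13). No gene of these 2 lists was FDR-significant with batch as categories or without the 6 mice. In FC vs. TA, 0 genes of any of these lists were FDR-significant in limma (0%).

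The genes next to the 3 on the chromosome were mostly without rows. Of the nearest annotated genes, *Ppp1r3e* and *Pabpn1* flank *Bcl2l2*, *n-R5s173* and *Lpcat2b* flank *Ephx4*, and *Spata33* and *4933417D19Rik* flank *Cdk10*. Only *Spata33*, 2796 bases from *Cdk10*, had a row, with an EXT vs. TA difference of 0.32 (SE 0.13, FDR = 0.0733 in limma). *Spata2l*, which overlaps the end of *Cdk10* on the other strand, differed by -0.10 (SE 0.10, FDR = 0.464), and had r = -0.08 with *Cdk10* in 39 mice.

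Markers of other cell types were compared for the same mice. Glutamatergic markers were at 9.34 to 10.45 in EXT mice, against 9.02 to 10.29 in TA mice, and 0 of 4 were FDR-significant in EXT vs. TA. The summed oligodendrocyte markers were at 11.45 to 13.72 in the 6 mice that stand apart and 10.88 to 12.36 in the other EXT mice, against 10.49 to 12.67 in TA mice. In EXT vs. TA, where 21.4% of all genes were FDR-significant, 0 of 8 oligodendrocyte and 0 of 4 choroid plexus markers were. Of 9 astrocyte markers 1 was, and it rose. The 2 endothelial genes with rows summed to 4.39 to 7.59 in EXT mice. Of the 13 *Crh* neuron and GABAergic markers 4 fell and 0 rose (11% and 10.4% of all genes), and of the 8 pan-neuronal markers 2 fell, and in both lists 0 did so with batch as categories or without the 6 mice (median of the former -0.58, and then -0.16 and -0.17), while all 7 measured genes of the list of mitochondrial transcripts and *Malat1* rose (median 2.25, and 0.31 without the 6 mice, 0 of 7 being FDR-significant then). The part of these shifts in the levels of *Bcl2l2*, *Ephx4* and *Cdk10* was not tested.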

How the data were processed

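Translating ribosome affinity purification followed by RNA-seq (TRAP-seq) was analysed for 44 mice, each a separate animal, grouped by the deposited labels. Per the study's methods the authors used Trimmomatic 0.36 to trim paired reads of 50 bases, STAR to map them on GRCm38, then filtered lowly expressed genes, removed outlier samples and transformed counts with voom. The deposited values of all 44 columns are these log2 values (log2 cpm with an offset of 0.5 reads), made by the authors and used as deposited. Effective library sizes, and with them whole reads, were solved from the deposited values, of which 360932 of 360932 came out within 0.1 of a whole read. The lowest count was 28 reads and the median 895. A gene at the lowest count has a wide counting error, while that of the 3 genes was smaller than the spread between mice (0.086 on the log2 scale for *Bcl2l2*, 0.046 for *Ephx4* and 0.049 for *Cdk10*, against SDs of 0.28, 0.20 and 0.18 in TA mice). The strand setting and the counting tool were not given in the sources used here.

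Genes were tested with limma 3.58.1 (lmFit and eBayes, R 4.3.3), two-sided, with batch entered as a number and sex as a factor, and p-values were adjusted by Benjamini-Hochberg (FDR) over all 8203 genes, with a threshold of 0.05. Sex and batch were tested with batch as categories. For covariation, values were centred within batch and group in Python 3.11.15 (scipy 1.17.1), and 100000 permutations within these cells gave p. Both were tested on simulated data for all 8203 genes. At a log2 change of 0.5 in 200 genes, FC vs. TA recovered 120, EXT vs. FC 118 and EXT vs. TA 151. Beside these stood 6, 16 and 22 false calls among unchanged genes. In both EXT contrasts that is a larger share of the calls than the FDR threshold of 0.05. With batch as categories, 147, 102 and 126 were recovered beside 8, 6 and 6 false calls. Of 200 genes driven by a common factor, 198 were among the 200 with the highest r. Alternatives were batch as categories or absent, all groups in 1 fit, genes with a mean of at least 5, samples centred on their median or quantile-normalized, voom weights, library size as a covariate, and leaving out batches or mice. A count test was not used as the main result because the deposited values are not counts.

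The members and gene lists were chosen with earlier results of these data known. Genes were named by rule: for each of the 3 genes the 8 with the highest and the 4 with the lowest r, the 10 with the highest mean r, and in each list of relatives the FDR-significant genes with the smallest p, up to 6, made up to 3 where fewer passed, the other risers of the study's top list and the nearest annotated neighbours. *Bcl2*, *Bcl2l1*, *Mcl1*, *Ephx2*, *Cdk5*, *Fam58b* and *Pkn2* were named outside it, after their values were seen. A few genes that the rule names are not reported here. Positions came from GENCODE release 21 for GRCm38, and promoters from RefSeq (GRCm38.p6).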

Additional observations from a re-analysis of the deposited data

Results flagged for a closer look

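In 4 of 39 comparisons of 1 gene over a small set of mice of one group, a single mouse lay far from the rest by Dixon's test, which flags about 1 in 20 groups by chance. *Bcl2l2* was at 4.26 log2 cpm in EXT mouse 23, and *Cdk10* was at 5.81 in the same mouse, each the lowest of the 5 EXT mice of batch 3. The other 4 mice of that batch are among the 6 that stand apart. *Bcl2l2* was at 4.93 in FC mouse 13, the highest of the 5 FC mice of batch 5. *Ephx4* was at 5.41 in TA mouse 32, the lowest of the 5 TA mice of batch 2, in which the FC mice were lower still.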

How the results depend on the processing

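The number of FDR-significant genes in EXT vs. TA was 1755, and 2 with batch as categories, 0 with log2 library size as a covariate, 3 without batches 3 and 4, 0 without the 6 mice that stand apart, and 128 without them with batch as categories. That of EXT vs. FC was 0, and 17 with all 3 groups in the fit. For the batch by EXT vs. TA interaction it was 111, and 0 without the 6 mice (1666 genes with an unadjusted p under 0.05). The EXT vs. TA difference of *Bcl2l2* (0.91) was 0.62 with batch as categories, 0.61 without batches 3 and 4, and 0.46 (batch as a number) and 0.48 (categories) without the 6 mice. That of *Cdk10* (0.61) was 0.36, 0.36, 0.26 and 0.27 under the same settings and 0.42 with library size. For *Ephx4* every alternative lay within 1 SD of the reported value. Signs that turned were all of values with no call. The sex difference was 0.023 for *Ephx4* without the 6 mice and 0.047 for *Cdk10* with batch as a number. The sex by EXT vs. TA term of *Bcl2l2* was -0.048 (categories), -0.48 (without batches 3 and 4) and -0.12 (without the 6 mice), and that of *Cdk10* -0.0018, -0.32 and -0.072. *Birc6* was at -0.0038, -0.013, -0.0062 and, without the 6 mice with categories, -0.15, and *Spata2l* at 0.013 without the 6 mice. The r of *Bcl2l2* and *Cdk10* (0.73) was 0.58 without batch 3, 0.59 without mouse 23, 0.36 without mice 21 and 23, 0.34 without the 6 mice, 0.17 in TA mice and 0.51 in FC mice, each no longer past the threshold. The r of *Bcl2l2* and *Ephx4* (0.36) was -0.14 without mice 21 and 23, -0.13 without the 6 mice, -0.30 in FC mice and, past the threshold, 0.80 in EXT mice. The r of *Ephx4* and *Cdk10* (0.40) was -0.20 without mice 21 and 23, -0.21 without the 6 mice and -0.24 in FC mice, and that of library size and *Bcl2l2* (-0.12) was 0.18 without the 6 mice. The causes of these shifts were not tested. Scaling by medians or quantiles, voom weights and omission of the batch term turned none of the 3 genes' EXT vs. TA, FC vs. TA or EXT vs. FC differences. *Bcl2l2* gave no value under the minimum mean. No paired analysis was possible because the labels give mice no number shared between groups.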
